A study of Mus musculus with 2 samples.

Results

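Ly6a, Ly6c1, Ly6c2, Ly6e, Ly6h and Ly6k, 6 genes of the Ly6 family among the 27998 mouse genes counted, were followed across the cell classes of 2 mouse glioblastomas. The genes were taken by symbol and had been chosen by their UMI levels in these same classes, so the levels by class are a description and no test is made between classes. Each tumour came from a C57BL/6 mouse of 3 months in the NPCTKO model. In this model a piggyBac transposon was electroporated in utero into progenitors of the neocortex, with Cas9, luciferase, guides that hit tumour suppressors, Trp53 and Nf1 among them, and an EGFP or DsRed label, and gliomas grew in the adult. Both tumours carry these edits and no unedited brain was sequenced. Of the hosts, Tek-Cre;Ai14 animals mark endothelial cells and tumour-associated macrophages and microglia (TAMs) with tdTomato, and Tbx18CreERT2/+;Ai14 animals mark mural cells after tamoxifen. The labels do not assign a host to a library, so host, tumour and library cannot be told apart. Each tumour gave 1 droplet library of 3′ tags, called tumour 1 and tumour 2 here, and the unit is the UMI, a molecular tag by which copies of the same captured transcript are counted as 1.

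Ly6 proteins are small surface proteins, most of them held in the membrane by a lipid anchor, with a compact fold braced by disulfide bonds. Ly6a encodes Sca-1, used to sort blood stem cells and also present on vessel endothelium of the mouse brain. Ly6c1 and Ly6c2 encode the closely similar forms of the Ly6C antigen, which immunologists use to divide monocytes and to mark memory T cells. Ly6e is an interferon-induced member expressed in many tissues, Ly6h is a brain member known to bind nicotinic acetylcholine receptors, and Ly6k is best known from the testis.

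All 6 genes lie on chromosome 15 of the GRCm38 build. In order they are Ly6k at 74796874 to 74799986 on the minus strand, Ly6e at 74955051 to 74959905 on the plus strand, Ly6a at 74994877 to 74998031, Ly6c1 at 75044018 to 75048830, Ly6c2 at 75108158 to 75111970 and Ly6h at 75551268 to 75567255, the last 4 on the minus strand. Ly6c1 and Ly6c2 are separated by 59327 bases and have the most similar transcripts of the set, with 802 identical bases, 20 mismatches and 22 gapped positions in an alignment of 844 columns (95.0%). Ly6a was 80.1% identical to Ly6c1 and 81.5% to Ly6c2 by the same measure. Because a 3′ tag is read from the transcript end, windows of 90 bases were compared over the last 400 bases. Of 311 windows, 35 (11.3%) were shared by Ly6c1 and Ly6c2, and none of the 311 of Ly6a, Ly6e, Ly6h or Ly6k was found in another gene of the region. A read from a shared window cannot be placed on 1 gene of the pair, so a part of the pair's reads may be missing from both counts.

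The stretch of 250 bases before the start of Ly6c1 (chr15:75048838-75049087, minus strand) and of Ly6c2 (chr15:75111972-75112221, minus strand) is shown because this pair, so alike in transcript, was counted in different cells. The sequences are RefSeq's on GRCm38.p6 and run 5′ to 3′, with matches to the motifs searched in capitals.
Ly6c1: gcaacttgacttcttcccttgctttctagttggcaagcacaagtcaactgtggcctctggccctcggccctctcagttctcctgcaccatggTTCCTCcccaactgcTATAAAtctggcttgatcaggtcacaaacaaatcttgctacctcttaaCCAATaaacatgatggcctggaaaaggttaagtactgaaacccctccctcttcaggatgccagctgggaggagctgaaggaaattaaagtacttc
Ly6c2: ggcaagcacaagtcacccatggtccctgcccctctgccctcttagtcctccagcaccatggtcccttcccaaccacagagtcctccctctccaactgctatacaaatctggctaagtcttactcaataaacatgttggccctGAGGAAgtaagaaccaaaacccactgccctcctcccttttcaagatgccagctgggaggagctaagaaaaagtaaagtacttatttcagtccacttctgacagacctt

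The aligned stretches had 171 identical bases in 290 columns (59.0%), with 39 mismatches and 80 gapped positions. Of 6 motifs searched on both strands, the Ly6c1 stretch held TATAAA 143 bases before the start, CCAAT 95 bases before it and GAGGAA, the purine-rich core of ETS factor sites, on the opposite strand 158 bases before it. The Ly6c2 stretch held GAGGAA alone, 108 bases before the start. Among 32536 promoter windows of this length, 12.3% held TATAAA, 33.8% CCAAT and 23.4% GAGGAA. The GC box GGGCGG (33.0% of windows), TTCNNNGAA (7.04%) and the interferon-stimulated core, GAAA followed by GAAA after any 2 bases (2.98%), were in neither. These matches are letters in a window and say nothing of which factors bind there.

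Cells were assigned to 6 classes by raw counts of marker genes outside the Ly6 family: EGFP glioma cells (4913 and 3205 in tumours 1 and 2), C1q macrophages (802 and 708), Plac8/Chil3 monocytes (7 and 394), Cd3 T cells (254 and 518), Cldn5 endothelial cells (ECs, 35 and 25) and Mog oligodendrocytes (OLGs, 120 and 75). Mural, dendritic, neutrophil, natural killer, B and astrocyte-like cells were gated in the same way for comparison. With these further classes, 6965 of 11332 cells kept in tumour 1 and 5361 of 13108 in tumour 2 are in a class, and 38.5% and 59.1% are in none. Median depths were 17986 and 13401.5 UMIs per cell, and 51 cell barcodes occurred in both libraries, of which 6 were in a class in both. Each class was checked against markers not used to gate it. All 5 EC and all 5 OLG markers, and the 3 T-cell markers that the files list, had their highest level in their own class in both tumours. Of the monocyte markers 4 of 5 in tumour 1 and all 5 in tumour 2 did so, and of the macrophage markers 4 and 5 of 6. For glioma it was 3 of 5, since Nes was higher in ECs and Sox2 in OLGs. The monocytes of tumour 1 are 7 cells, so every monocyte value there rests on them.

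Levels are given as UMIs per 10000 UMIs of all mouse genes in the summed cells of a class, first for tumour 1 and then for tumour 2. Intervals for single libraries are exact 95% ones, and like the limits for counts of 0 they cover counting error only. A tag at the 3′ end counts a transcript irrespective of its length, but capture can differ between genes, so levels are compared between classes and not between genes.

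Of the 6 classes, ECs had the highest Ly6a level, and every EC of both tumours had a UMI. The EC level was 26.6 in tumour 1 and 22.3 in tumour 2, a mean of 24.4 ± 3.06 (SD, n = 2). Monocytes followed at 19.0 and 10.4, then C1q macrophages at 5.54 and 5.47 and T cells at 3.34 and 4.197. Glioma cells had 0.489 and 0.564 and OLGs 0.555 and 0.279. The order was the same in both tumours down to the T cells, with no overlap between neighbours, and T cells did not overlap with glioma cells either, while glioma cells and OLGs overlapped. Single ECs ranged widely: the 10th percentile, median and 90th percentile were 11.9, 31.7 and 56.3 in tumour 1 and 3.14, 20.1 and 39.6 in tumour 2. Sca-1 is thus not an EC transcript alone here. Because macrophages and glioma cells are many, C1q macrophages held 33.6% and glioma cells 22.0% of all Ly6a UMIs of kept cells in tumour 1, against 6.18% in ECs, and in tumour 2 the shares were 21.2%, 7.91% and 2.38%. Outside the 6 classes, dendritic cells had 10.1 and 10.5, and B cells 52.4 in 5 cells of tumour 1 and 6.56 in 28 cells of tumour 2.

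Ly6c1 was an EC transcript in both tumours. ECs had 28.8 in tumour 1 and 13.2 in tumour 2, a mean of 21.01 ± 10.99 (SD, n = 2), with a UMI in 35 of 35 and 24 of 25 cells. T cells, the class with the next highest mean, had 0.0130 and 0.108, which puts the EC mean 349-fold above theirs. Glioma cells had 0.0181 and 0.0484, OLGs 0.0254 and 0.0249, monocytes 0 and 0.0236, and C1q macrophages 0.00911 and 0.00932. The neighbours below ECs overlapped except OLGs and monocytes. Thinned to 2000 UMIs per cell, EC shares with a UMI averaged 96.0%. ECs held 45.5% and 26.9% of the Ly6c1 UMIs of kept cells, glioma cells 5.54% and 12.9%, and cells in no class 47.2% and 54.65%.

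**Figure D1:**
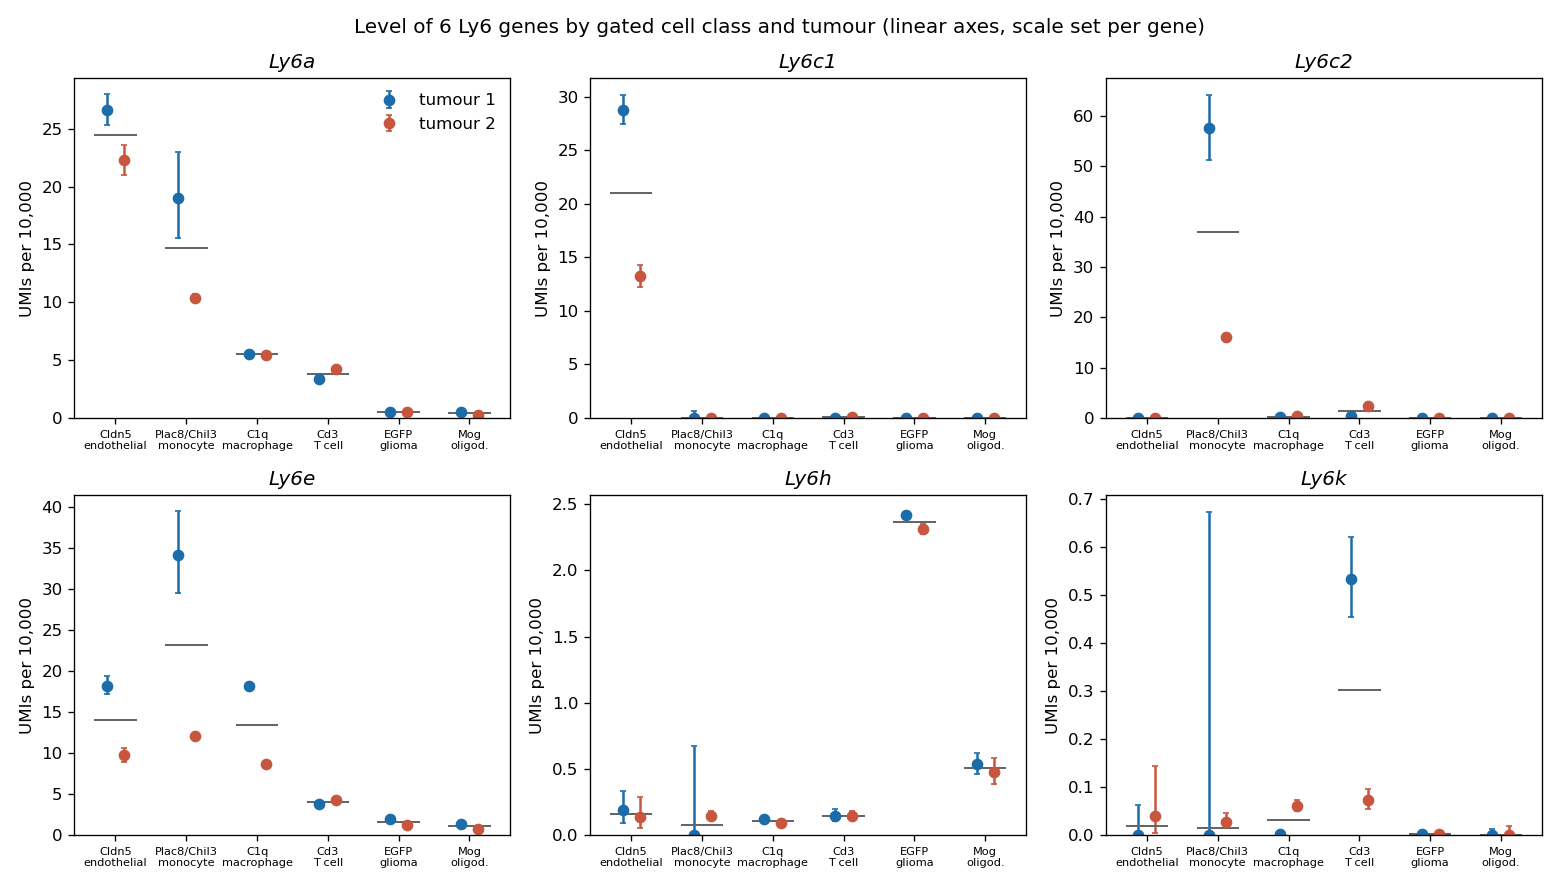
UMIs per 10000 (vertical axes, linear, each with its own scale) of each of the 6 genes in the 6 classes (horizontal axes), by tumour; points are summed cells of a class in 1 tumour, bars exact 95% Poisson intervals for counting error, and grey lines the mean of both tumours. Ly6a and Ly6c1 peak in ECs, Ly6c2 and Ly6e in monocytes, Ly6h in glioma cells, and Ly6k in T cells, with 0.533 in tumour 1 and 0.0735 in tumour 2.

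Ly6c2 was highest in Plac8/Chil3 monocytes. They had 57.5 in the 7 cells of tumour 1 (95% interval 51.4 to 64.3) and 16.2 in the 394 cells of tumour 2, a mean of 36.9 ± 29.2 (SD, n = 2). A UMI was found in all 7 and in 372 monocytes. T cells had 0.328 and 2.40, and C1q macrophages 0.188 and 0.353, and T cells and macrophages overlapped. The monocyte mean was 27.0-fold that of T cells, but this ratio leans on the 7 monocytes of tumour 1. Monocytes stood at 57.5 against 0.328 in tumour 1 and much closer, at 16.2 against 2.40, in tumour 2. Glioma cells had 0.00464 and 0.0581, ECs 0 and 0.0595, and OLGs 0.00317 and 0.0448. In ECs of tumour 1 no cell of 35 had a UMI, which by the limit of 3 counts allows a share of cells with a UMI of up to 8.57%. These 5 classes had more in tumour 2, whose library held more monocytes, and the part of that difference was not tested. Among the further classes, neutrophils of tumour 2 had 3.08, dendritic cells 1.94 and 1.25, and natural killer cells of tumour 2 had 1.51. B cells had 29.6 in tumour 1, from 92 UMIs in 3 of 5 cells, and 0.806 in tumour 2, and the only neutrophil of tumour 1 had 8 UMIs. Plac8 helped to gate the monocytes, and in tumour 2 monocytes spanned 0.995, 10.9 and 40.0 Ly6c2 UMIs per 10000 at the 10th, 50th and 90th percentiles.

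The pair thus divided by class. In ECs, 1698 of 1698 pair UMIs in tumour 1 (100%, exact binomial 95% interval 99.78 to 100) and 667 of 670 in tumour 2 (99.6%, 98.7 to 99.9) were Ly6c1. In monocytes 0 of 315 (an upper bound of 1.16%) and 12 of 8265 (0.145%, 0.0750 to 0.254) were Ly6c1, although the Ly6c2 transcripts counted there share stretches near their ends with Ly6c1. T cells gave 3.81% and 4.29% Ly6c1, and C1q macrophages 4.62% and 2.57%. Glioma cells, with 260 and 704 pair UMIs, gave 79.6% and 45.5%. No pattern is read from these shares, since the glioma Ly6c2 level lay within the counting intervals of OLGs and ECs in both tumours, with at most 1 and 3 UMIs in a cell. Only 1 glioma cell in tumour 1 and 16 in tumour 2 had UMIs of both genes.

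**Figure D2:**
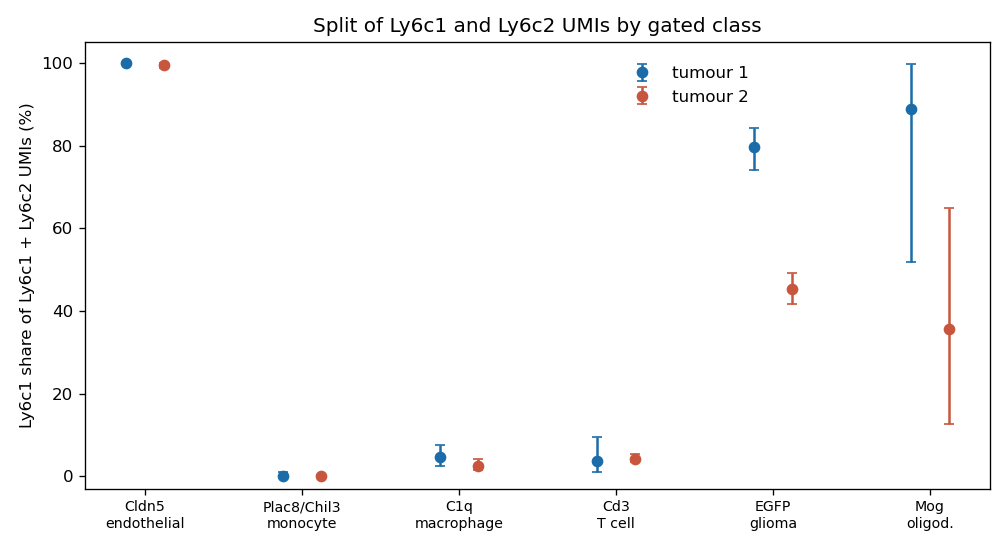
Ly6c1 UMIs as a percent of Ly6c1 and Ly6c2 UMIs together (vertical axis) in each gated class (horizontal axis) of tumour 1 and tumour 2; bars are exact 95% binomial intervals for counting error. ECs sit at 100% and 99.6% and monocytes at 0% and 0.145%, and OLGs rest on 9 and 14 UMIs.

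Ly6e was the most widely counted member across classes. Monocytes had 34.2 and 12.01 (mean 23.1 ± 15.7, SD, n = 2), ECs 18.2 and 9.72 and C1q macrophages 18.1 and 8.66. These classes overlapped with each other, and all of them were higher in tumour 1. T cells had 3.83 and 4.24, glioma cells 2.00 and 1.25 and OLGs 1.38 and 0.782. The upper group did not overlap with T cells, nor T cells with glioma cells, whereas glioma cells and OLGs overlapped. C1q macrophages held 37.7% of the Ly6e UMIs of kept cells in tumour 1 and 26.6% in tumour 2, and 99.9% and 99.0% of them had a UMI.

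Ly6h was highest in glioma cells and nearly alike in both tumours. Glioma cells had 2.42 and 2.31, a mean of 2.37 ± 0.07 (SD, n = 2), and a UMI was seen in 83.2% and 64.7% of them. OLGs had 0.536 and 0.478, ECs 0.187 and 0.139, T cells 0.146 and 0.147, C1q macrophages 0.122 and 0.0883 and monocytes 0 and 0.147. The glioma mean was 4.66-fold that of OLGs, with no overlap, and OLGs were above ECs. T cells and macrophages had a UMI in 14.96% and 17.2% and in 19.0% and 17.1% of cells. Thinned to 2000 UMIs per cell the shares were 35.3% and 27.6% in glioma cells, against 3.95% and 3.86% in T cells and 2.24% and 2.26% in macrophages. Glioma cells held 72.3% and 67.5% of the Ly6h UMIs of kept cells. Astrocyte-like cells, gated as a further class, had 0.897 and 0.513, below the glioma level in each tumour. Their gate set no limit on EGFP and the glioma gate left such cells out, so this class may hold tumour cells too.

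Ly6k was counted least of the members and had its highest level of the 6 classes in T cells. T cells had 0.533 in tumour 1 and 0.0735 in tumour 2, a mean of 0.303 ± 0.325 (SD, n = 2). The count behind the first value is 164 UMIs in 79 of 254 T cells, and behind the second 52 UMIs in 27 of 518. C1q macrophages had 0.00260 and 0.0614, ECs 0 and 0.0397, monocytes 0 and 0.0275, glioma cells 0.00219 and 0.00151, and OLGs none in either tumour. The macrophage level of tumour 2, 112 UMIs in 37 cells, was close to the T-cell level there. T cells thus held 75.9% of 216 Ly6k UMIs in tumour 1 and 16.6% of 314 in tumour 2. B cells, outside the 6 classes, had 0.964 (3 UMIs in 1 of 5 cells) and 0.288 (5 UMIs in 3 of 28), above T cells in both tumours but on few counts. Gm17189, an antisense gene that overlaps Ly6k, had no UMI in T cells of either tumour.

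The next comparisons divide single classes by genes that the choice of members did not use. UMIs were summed per tumour and subgroup. The quasi-likelihood test of edgeR was run on 16 sums and 13494 genes, with a tumour term for each class and adjustment over all genes. With 1 library per tumour, the tumour term of a class takes up the difference in level between the animals. A p-value here weighs a difference between subgroups by how far such differences disagree between the animals, pooled over all classes in the fit. That spread has 4 residual degrees of freedom for each gene and was moderated by the spread of the other genes. A call therefore does not rest on the agreement of both animals in 1 comparison alone. All 6 members passed the filter on low counts.

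Within C1q macrophages, Ly6c2 and Ly6a were lower where microglial genes were high. Tmem119, P2ry12, Sall1, Siglech, Sparc, Gpr34 and Olfml3, genes of resident microglia, were summed per cell, and the upper 25% (200 cells in tumour 1, 177 in tumour 2) was set against the lower 25%. Ly6c2 had 0.0205 and 0.0510 in microglial-gene-high cells, against 0.680 and 1.02 in microglial-gene-low cells. Both high values lay far below both low ones, with a log2 fold change of −4.59 (SE 0.30; adjusted p by edgeR 5.08e-06). Ly6a had 3.72 and 2.19 in microglial-gene-high cells, against 8.31 and 10.5 in microglial-gene-low cells, again without overlap (log2 fold change −1.70, SE 0.31; adjusted p by edgeR 0.00715).

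Ly6e did not pass, with 19.9 and 9.48 in microglial-gene-high cells and 16.5 and 8.23 in microglial-gene-low cells (log2 fold change 0.24, edgeR adjusted p = 0.695). Members called were 2 of 6, both lower, where 3.23% of all genes were called, 1.66% as higher and 1.57% as lower. The median log2 fold change was 0.30 over the members and 0.02 over all genes. Monocyte markers moved with this division: 4 of 5 were lower and none higher in both tumours, and their summed level was 14.4 and 10.97 in microglial-gene-high cells, against 81.8 and 55.0 in microglial-gene-low cells. F13a1 was at 0 in the microglial-gene-high cells of both tumours and the other 4 markers were counted in every group. Their part in the Ly6a and Ly6c2 values was not tested. In a fit without the tumour term neither member passed, with edgeR adjusted p of 0.214 for Ly6a and 0.529 for Ly6c2 at log2 fold changes of −1.70 and −4.54.

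Within EGFP glioma cells, Ly6a, Ly6e and Ly6c1 rose with interferon-response genes. The score summed 12 such genes, Ifit1, Isg15, Rsad2, Irf7, Gbp2 and Cxcl10 among them and none of the Ly6 family, and its upper 25% (1228 and 801 cells) was set against its lower 25%. Ly6a had 1.64 and 1.54 in interferon-high cells, against 0.0602 and 0.138 in interferon-low cells, a log2 fold change of 4.08 (SE 0.35; adjusted p by edgeR 5.23e-06). Ly6e had 4.23 and 2.36 in interferon-high cells, against 0.905 and 0.478 in interferon-low cells, a log2 fold change of 2.22 (SE 0.20; adjusted p by edgeR 7.62e-06). Neither pair of groups overlapped, and for both genes the direction was alike in the tumours. Ly6c1 stayed scarce, at 0.0419 and 0.137 in interferon-high cells, against 0.0121 and 0.0102 in interferon-low cells, which is 2.63 on the log2 scale (SE 0.38; adjusted p by edgeR 5.08e-04).

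The brain member and Ly6c2 did not pass. Ly6h had 2.65 and 3.13 in interferon-high cells, against 1.99 and 1.49 in interferon-low cells, or 0.70 on the log2 scale (SE 0.36; adjusted p by edgeR 0.389). Ly6c2 had 0.00441 and 0.0573 in interferon-high cells, against 0.00381 and 0.0672 in interferon-low cells (log2 fold change −0.14, edgeR adjusted p = 0.921). Members called were 3 of 6, all higher, beside 5.84% of all genes called, 5.42% as higher and 0.415% as lower, and the median log2 fold change was 1.46 over the members and −0.02 over all genes. Markers of other classes were counted too. The oligodendrocyte list summed to 3.03 and 3.79 in interferon-high cells, against 1.90 and 3.56 in interferon-low cells (3 of 5 higher in both tumours). The summed monocyte list was 1.60 and 2.88 in interferon-high cells, against 0.391 and 1.31 in interferon-low cells (3 of 5 higher in both tumours), and the macrophage list 0.837 and 0.990, against 0.483 and 0.789 (3 of 6). The EC list was 0.0841 and 0.0652 in interferon-high cells, against 0.0706 and 0.0839 in interferon-low cells (1 of 5), and the mural list 0.153 and 0.212, against 0.0460 and 0.0474 (3 of 5). F13a1 of the monocyte list was at 0 in interferon-high cells of both tumours. The lists' part in the result was not tested.

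Over 4 equal parts of the cells ordered by the score, from low to high, Ly6a was at 0.0602, 0.0742, 0.256 and 1.64 in tumour 1 and at 0.138, 0.138, 0.429 and 1.54 in tumour 2. Most of its gain was therefore between the last of these parts. Ly6e was at 0.905, 1.201, 1.80 and 4.23 in tumour 1 and at 0.479, 0.722, 1.38 and 2.36 in tumour 2, a more even climb. Ly6h was at 1.99, 2.41, 2.63 and 2.65 in tumour 1 and at 1.498, 1.91, 2.65 and 3.13 in tumour 2. Ly6a was also concentrated in few cells: the 5% of glioma cells with the most UMIs of it (245 and 160 cells) held 84.6% of its glioma UMIs in tumour 1 and 71.1% in tumour 2.

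**Figure D3:**
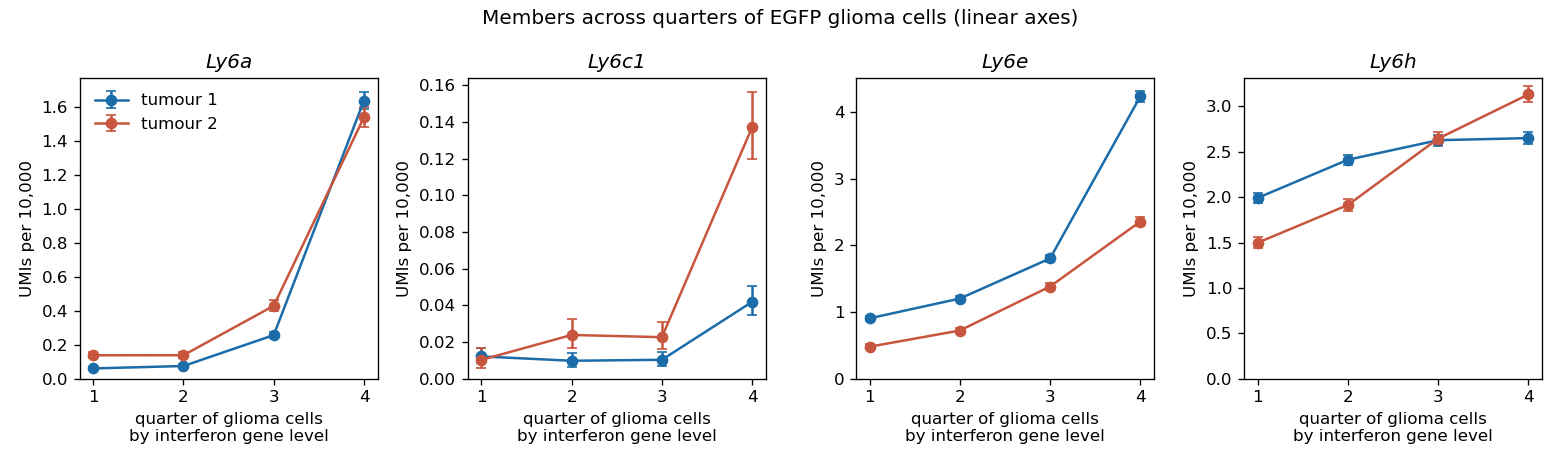
UMIs per 10000 (vertical axes, linear) of Ly6a, Ly6c1, Ly6e and Ly6h in 4 equal parts of the EGFP glioma cells ordered by interferon gene level (horizontal axes, low to high); points are summed cells of a part in 1 tumour, bars exact 95% Poisson intervals for counting error. Ly6a reaches 1.64 and 1.54 in the part with the highest level.

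Glioma cells with Apod, Itih5, Postn or Sfrp5, a group chosen after its values were seen, carried much of the Ly6a of tumour 1. These cells (299 and 225, or 6.09% and 7.02% of glioma cells) held 73.2% of glioma Ly6a UMIs in tumour 1 and 14.6% in tumour 2. Ly6a was at 5.52 and 1.10 in them, against 0.131 and 0.524 in glioma cells with under 5 UMIs of these genes, and Ly6e was at 8.07 and 2.47, against 1.56 and 1.11. Ly6h ran the other way, at 0.239 and 0.198 in the Apod cells, against 2.58 and 2.60 in the rest. They had less Olig2 (0.540 and 0.217, against 3.41 and 2.15) and Pdgfra (0.615 and 0.288, against 3.96 and 1.54), genes of oligodendrocyte precursors. They made up 17.4% and 14.9% of interferon-high cells, against 0.163% and 0.874% of interferon-low cells. An alternative added after seeing the data kept only glioma cells with under 5 UMIs of Apod, Itih5, Postn and Sfrp5 together (4529 and 2745). Cells between 5 UMIs and the 20 that define the Apod cells were thus dropped too. In that fit Ly6a kept a log2 fold change of 3.01 (edgeR adjusted p = 4.55e-05) and Ly6e one of 1.79 (edgeR adjusted p = 1.24e-04). Ly6c1 fell to 1.94 and did not pass (edgeR adjusted p = 0.0524).

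Other glioma states are given as values without a test. Cycling glioma cells had 0.109 and 0.451 of Ly6a, against 0.756 and 0.610 in cells without Mki67 or Top2a UMIs. Ly6h in Gpr17 cells was 1.47 in tumour 1 and 4.11 in tumour 2, so its place within the glioma cells differed between tumours. In cells with the cartilage genes Col2a1 or Mgp it was 1.91 and 0.427.

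**Figure D4:**
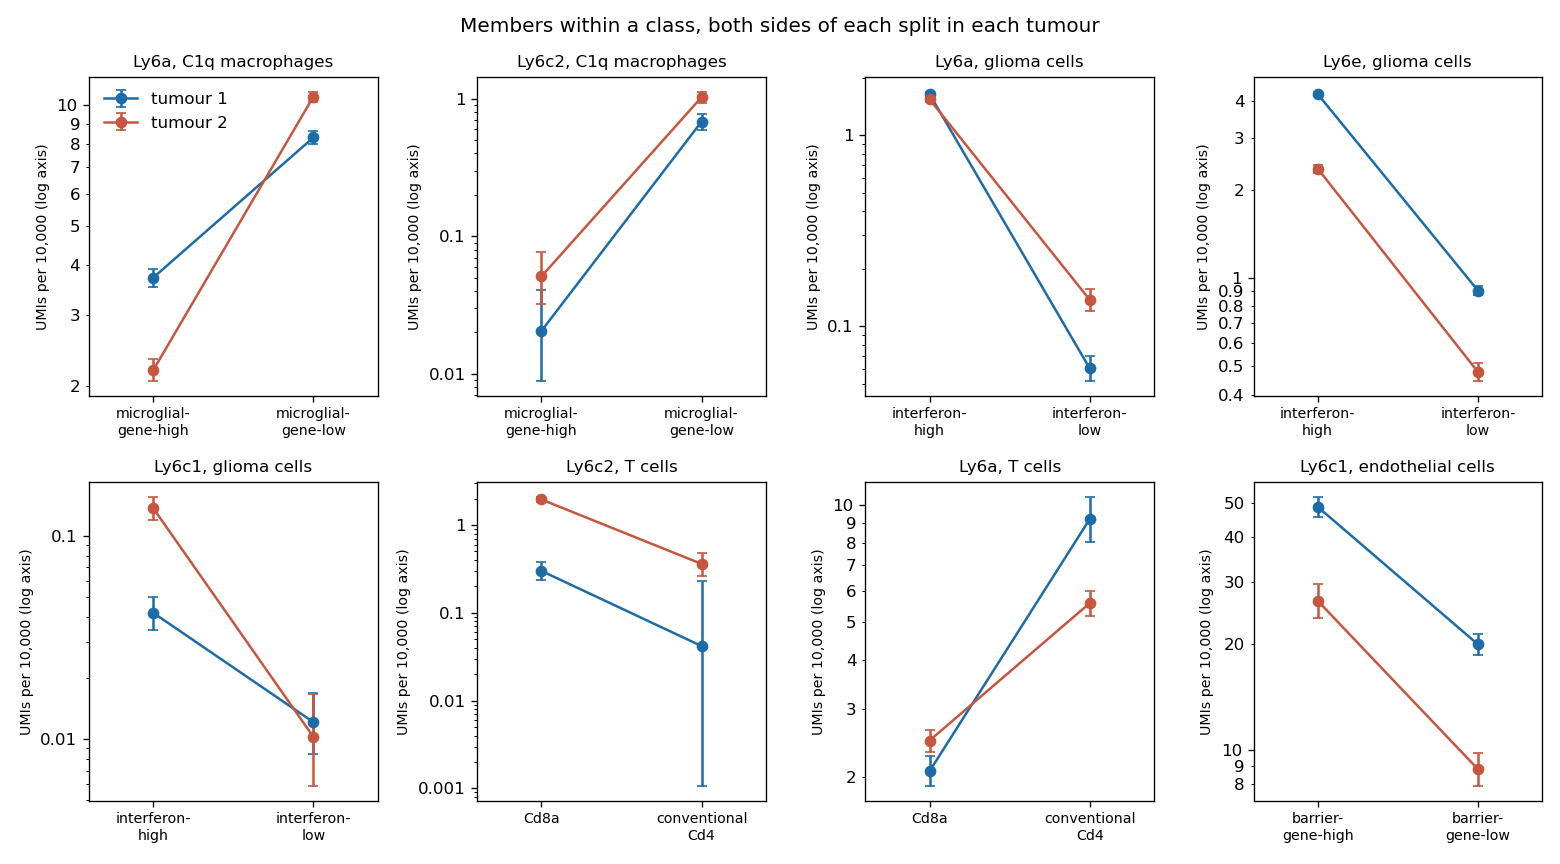
UMIs per 10000 (vertical axes, logarithmic) of the members in the high and low parts of a class, or in Cd8a and conventional Cd4 T cells, with 1 line per tumour; bars are exact 95% Poisson intervals for counting error. The 8 panels show the members called in these comparisons, with Ly6a in T cells and Ly6c1 in ECs, and in each of them both tumours move in the same direction, for example Ly6c2 in macrophages at 0.0205 and 0.0510 in microglial-gene-high cells, against 0.680 and 1.02 in microglial-gene-low cells.

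Among T cells, Ly6c2 was higher in Cd8a cells, the cytotoxic lineage, than in conventional Cd4 cells, the helper lineage without Foxp3. There were 198 and 219 Cd8a cells, and 26 and 86 Cd4 cells. Ly6c2 had 0.3003 and 1.95 in Cd8a cells, against 0.0419 (1 UMI) and 0.361 in Cd4 cells. Each tumour showed the difference, but the Cd8a value of tumour 1 lay under the Cd4 value of tumour 2. On the log2 scale the difference was 2.60 (SE 0.33; adjusted p by edgeR 0.00536), and without the tumour term the call was lost at 2.35 (adjusted p by edgeR 1). Ly6c2 was the only member called, 1 of 6, where 0.23% of all genes were called, 0.111% as higher and 0.119% as lower. The median log2 fold change was −0.44 over the members and 0.06 over all genes.

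Ly6a ran the other way without passing. It had 2.07 and 2.48 in Cd8a cells, against 9.21 and 5.60 in Cd4 cells, with no overlap, at a log2 fold change of −1.47 (SE 0.31; adjusted p by edgeR 0.107). Without the filter on low counts it passed (edgeR adjusted p = 3.81e-07). It also passed when glioma cells and macrophages were divided at the median, in a fit that then held no ECs (edgeR adjusted p = 0.0367). Over its alternatives the adjusted p ran up to 1. Ly6e had 2.97 and 3.14 in Cd8a cells, against 6.74 and 4.47 in Cd4 cells (log2 fold change −0.65, edgeR adjusted p = 0.477). The summed T-cell marker list was itself lower in Cd8a cells, at 4.92 and 6.03, against 8.66 and 8.93 in Cd4 cells, and its part in these values was not tested.

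Foxp3 T cells, the regulatory lineage, numbered 9 and 26 and fell under the minimum of 10 cells per tumour, so no test was made. They had 14.6 and 5.25 of Ly6a, against 9.21 and 5.60 in conventional Cd4 cells, and 10.99 and 6.802 of Ly6e, against 6.74 and 4.47. The Ly6e values of the regulatory cells lay higher in each tumour, and the Ly6a values did so in tumour 1 alone.

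Cycling Cd8a cells had less Ly6c2, at 0.0584 in 62 cells and 0.963 in 71 cells, against 0.770 in 85 and 4.6 in 78 cells without Mki67 or Top2a UMIs. This is a description with no test. In tumour 1 a Ly6c2 UMI was seen in 9.68% of cycling cells (7 UMIs) and in 9.41% of the other cells (56 UMIs). Median depth differed too, 19025 UMIs in cycling cells of tumour 1 against 8085 in the other cells.

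Ly6k in T cells of tumour 1 lay almost wholly in Cd8a cells. They held 153 of the 164 UMIs, in 72 of 198 cells (36.4%), while the 26 conventional Cd4 cells had none. In tumour 2 Cd8a cells had 21 of 52 UMIs in 10 of 219 cells. The levels were 0.629 and 0.0580 in Cd8a cells, against 0 and 0.0722 in Cd4 cells, so tumour 2 did not repeat the pattern, and the gene did not pass (edgeR adjusted p = 0.953). In Cd8a cells of tumour 1, 51.6% of cycling cells had a Ly6k UMI, against 25.9% of cells without Mki67 or Top2a. Thinned to 2000 UMIs per cell the shares were 3.23% and 7.06%, so no order is read from the unthinned shares.

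**Figure D5:**
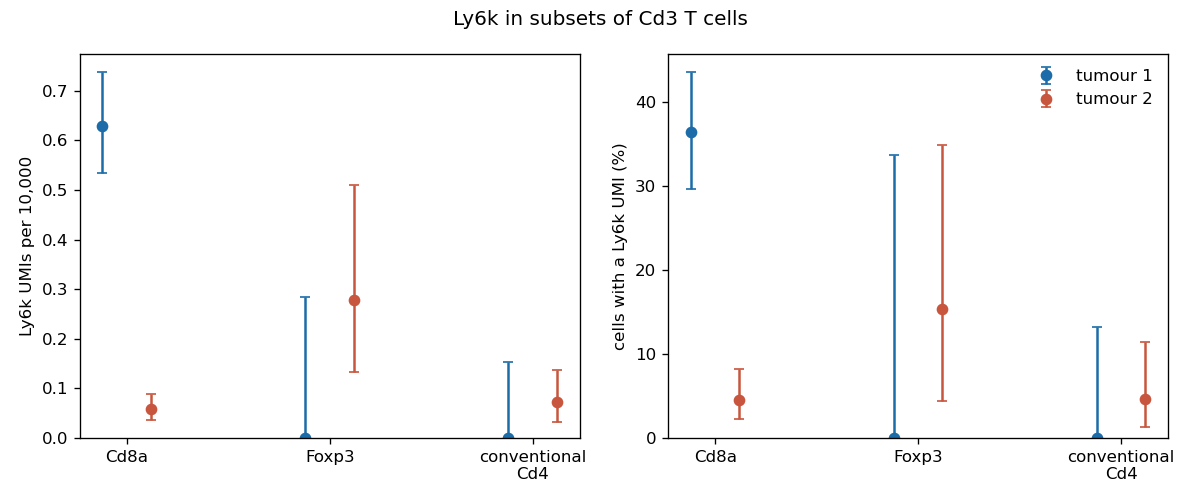
Ly6k in subsets of Cd3 T cells (horizontal axes) by tumour, as UMIs per 10000 (left, exact 95% Poisson intervals) and as percent of cells with a UMI (right, exact 95% binomial intervals). Cd8a cells of tumour 1 stand at 0.629 and 36.4%, and those of tumour 2 at 0.0580.

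Within ECs, no member passed between cells high and low in blood-brain barrier genes. Slc2a1, Mfsd2a, Slco1c1, Slco1a4, Abcb1a and Itm2a, most of them transporters of brain capillaries, divided the ECs into an upper and a lower 50%, of 17 and 12 cells each. Ly6c1 had 48.8 and 26.5 in barrier-gene-high ECs, against 19.9 and 8.84 in barrier-gene-low ECs, and the 2 ranges did not overlap. The difference was 1.24 on the log2 scale (SE 0.30; adjusted p by edgeR 0.160, unadjusted p 0.00120). Without the filter on low counts it passed (edgeR adjusted p = 6.53e-05), and over its alternatives the adjusted p ran up to 0.987. Ly6a had 33.8 and 29.4 in barrier-gene-high ECs, against 23.5 and 19.9 in barrier-gene-low ECs (log2 fold change 0.35, edgeR adjusted p = 0.790).

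Members called by edgeR were 0 of 6, with 1 at an unadjusted p under 0.05, and DESeq2 likewise gave 0 and 1. Of all genes 0.0148% were called, all as lower, and 0% as higher. The median log2 fold change was 0.44 over the members and −0.09 over all genes. The member median takes in Ly6k (2 UMIs), Ly6c2 (3 UMIs) and Ly6h, whose log2 folds by tumour were −2.27 and 3.81. No shift of the members as a set is read from it. Beside these values, the EC marker list summed to 51.7 and 33.5 in barrier-gene-high ECs, against 32.7 and 14.6 in barrier-gene-low ECs, and the glioma list to 2.01 and 2.30, against 7.33 and 3.61. Median depth was 6529 and 8762.5 UMIs in barrier-gene-high ECs, against 16716 and 16326 in barrier-gene-low ECs. The part of these differences in the Ly6c1 values was not tested.

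Monocytes were divided by MHC class II genes (H2-Aa, H2-Ab1, H2-Eb1, Cd74), and as only tumour 2 had enough cells, no test was made. Ly6a was at 14.7 in the 197 MHC-II-high monocytes, against 5.50 in the 197 MHC-II-low ones. Ly6c2 differed less, at 18.2 against 14.0, and Ly6e was at 11.8 against 12.2. The 3 and 3 cells of tumour 1 had 14.7 of Ly6a in the MHC-II-high part, against 18.1 in the MHC-II-low part.

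Of 29 further genes of the Ly6 and uPAR family, all listed in the files, 15 had at least 50 UMIs in gated cells and 5 had none. By mean UMIs over both tumours, the most counted by class was Lypd1, a modulator of nicotinic receptors, in glioma cells (0.367 and 0.402) and in T cells (0.00975 and 0.0792). In tumour 2 alone Cd59a was counted more in glioma cells (0.539), and in tumour 1 alone Ly6i in T cells (0.0325). It was Plaur, the urokinase receptor, in C1q macrophages (0.932 and 0.998) and in ECs (0.559 and 0.774). In monocytes it was Ly6i, a neighbour of the Ly6c pair in the family, at 9.86 and 3.59, and in OLGs Cd59a, an inhibitor of complement, at 0.0730 and 0.379. B cells had Ly6d, a marker of the B lineage, at 14.1 and 6.62.

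Of these 29 genes 8 passed the filter on low counts, and only Cd59a was called in any of the 4 comparisons. It had 0.111 and 1.26 in interferon-high glioma cells, against 0.00692 and 0.0711 in interferon-low cells (4.03 on the log2 scale, SE 0.34; adjusted p by edgeR 4.91e-06). In the fit of glioma cells with under 5 UMIs of Apod, Itih5, Postn and Sfrp5, its log2 fold change was 1.76 and it did not pass (edgeR adjusted p = 0.0528). Without the tumour term it did not pass either (edgeR adjusted p = 0.121).

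The genes most like each member were taken by Pearson's r of log2(UMIs per 10000 + 0.1) over 19 sums of classes, which share 2 libraries and differ in depth. For Ly6c1 they were Erg (r = 0.993) and Sox17 (0.991), both transcription factors of endothelium, and Slc38a5 (0.991), an amino acid transporter. For Ly6c2 they were Plac8 (0.936), which was itself used to gate monocytes, Pyhin1 (0.906) and AA467197 (0.896). Ly6h went with Fam19a1 (0.956), Iglon5 (0.939) and Il17d (0.935), and Ly6k with Arhgap27os3 (0.940, on 68 UMIs), Fam169b (0.887) and Zbtb32 (0.856). The likeness was lower for the broader members: Ly6a went with Cflar (0.861), Gch1 (0.848) and Prcp (0.837), and Ly6e with Msn (0.870), Ehbp1l1 (0.866) and Ctsh (0.861). Ly6a and Ly6e had r = 0.836 with each other.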

How the data were processed

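Libraries were made from 2 tumours with a 10x Genomics 3′ kit. The authors aligned the reads with Cell Ranger 4.0.0 to mm10 (GRCm38) and deposited raw UMI counts per gene and barcode without normalization (14302 and 18596 barcodes, 282961884 and 295366782 UMIs of mouse genes). Seurat is named in the submitters' notes and no output of it was used.

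Barcodes with under 500 genes (127 and 1), at least 20% mitochondrial UMIs (1388 and 3040) or at least 5% haemoglobin UMIs (8 and 50) were left out. Scrublet's own threshold called 0 and 117 doublets, too few to be credible, and barcodes were instead removed from the highest score down, 0.8% for each 1000 barcodes (1636 and 2766). Gates were set after the marker distributions were seen. They asked for at least 50 EGFP UMIs and 30 per 10000, 50 C1q UMIs, or 10 of Plac8 and Chil3 with 2 of each. The others asked for 5 of the Cd3 genes, 5 of Cldn5 or 5 of Mog. Limits were set on most markers of other classes, but the Mog and astrocyte-like gates had none on EGFP. The glioma gate left out cells with at least 20 UMIs of the astrocyte markers. Transgenes stayed out of totals. Shares of cells were also taken after thinning to 2000 UMIs.

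Counts were summed per tumour and subgroup of at least 10 cells and tested with edgeR 4.0.16 (R 4.3.3; filterByExpr, TMM, glmQLFit, Benjamini-Hochberg, threshold 0.05). The tumour was a term within each class, since sums with the same number come from the same animal. Deviations of the 28 pairs of subgroups correlated at 0.048 to 0.658. DESeq2 1.42.0 was an alternative, with others given in the closing section. The fit was tested on simulated data. Other tools were Python 3.11.15, numpy 2.4.6, scipy 1.17.1 and scanpy 1.11.5.

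Some genes of the lists and states used are not reported here. The members, gene lists and divisions were chosen with earlier results of these data known. All 6 members are described. From a list of 29 further family genes, those called in a comparison and the most abundant in each class are named, together with the 3 genes most like each member. Glioma states beside the divisions were chosen after values were seen. Promoter windows of 2 members matched the RefSeq table.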

Additional observations from a re-analysis of the deposited data

How the results depend on the processing

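The tests rest on 2 animals. A call states no more than a subgroup difference beyond the disagreement of such differences between them, with their difference in level set aside. That disagreement was pooled over the classes of the fit and moderated by the other genes. The EC values rest on 35 and 25 cells. Rare members in rare classes were not detectable below the limits that counts of 0 allow. Planned comparisons of Foxp3 T cells and of monocytes by MHC class II, and a division of ECs into 4 parts, were not run, because groups fell under 10 cells.

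Members called between Cd8a and Cd4 cells were 2 without the filter on low counts, 2 with the other division of classes, 0 with 1 tumour term for all classes and 0 with no replicate block, against 1 as reported. With no replicate block 0 members were called in macrophages (2 as reported), 3 in glioma cells and 0 in ECs. Without the filter 1 was called in ECs (0 as reported). With glioma cells limited to those under 5 UMIs of Apod, Itih5, Postn and Sfrp5, 2 were called in glioma cells. The Ly6a mean level in ECs was 19.9 without exclusion by other markers and 27.6 as a mean of single cells, against 24.4. That of Ly6h in glioma cells was 2.28 without doublet removal, 2.19 without exclusion and 2.65 as a mean of single cells, against 2.37. Thinned to 1000 UMIs, the share of cells with a UMI was 85.1% for Ly6a and 72.3% for Ly6c1 in ECs, 79.3% for Ly6e in monocytes and 19.8% for Ly6h in glioma cells, against 94.6%, 96.0%, 95.4% and 31.5% at 2000.

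Without each replicate in turn the highest-class level spanned 22.3 to 26.6 for Ly6a, 13.2 to 28.8 for Ly6c1, 16.2 to 57.5 for Ly6c2, 12.01 to 34.2 for Ly6e, 2.31 to 2.42 for Ly6h and 0.0735 to 0.533 for Ly6k. Fold changes from 1 tumour have no residual degrees of freedom and no test; those called kept their direction, Ly6a in macrophages at −1.15 and −2.25 and Ly6c1 in glioma cells at 1.66 and 3.64.

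Over all genes, 31 were called between Cd8a and Cd4 cells, 788 in glioma cells, 436 in macrophages and 2 in ECs. Without the filter these were 151, 1223, 814 and 244 and with no replicate block 3, 153, 26 and 0. With 1 tumour term for all classes they were 4, 448, 171 and 0. In ECs DESeq2 called 119, the fit without doublet removal 24 and the 10% mitochondrial limit 4. With DESeq2's size factors 1 was higher and 2 lower in ECs, against 0 and 2. With glioma cells limited to those under 5 UMIs of Apod, Itih5, Postn and Sfrp5, 7 were called in ECs and 254 in glioma cells. The other division of classes, in a fit without ECs, gave 62 between Cd8a and Cd4 cells.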
